A study of Mus musculus with 8 samples.

Results

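The lipid absorption and apolipoprotein genes described here are 9 genes of the absorbing intestinal cell, the fatty acid-binding protein genes Fabp1 and Fabp2, the retinol-binding protein gene Rbp2, the triglyceride synthesis gene Dgat1, the lipid transfer gene Mttp, and the apolipoprotein genes Apob, Apoa1, Apoa4 and Apoc3. They were chosen by symbol, with no measured value in the rule, and 9 of 9 were found among the 13420 mouse genes of the read count table. The filter on low counts, described with the methods, kept 7 of the 9. Rbp2 and Apob did not pass it and are given as values without a test. The 7 passed through their reads in the wild-type (WT) libraries, so a count of calls among them is not evidence about the gene group.

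The samples were mouse small intestinal organoids, which are self-renewing epithelial cultures grown from crypts. WT organoids (C57BL/6) carried the mTmG transgene, which marks the membrane with tdTomato. Cancer organoids (C57BL/6, F6) carried a Dendra2 label and Villin-CreERT2 with, among their alleles, Apc fl/fl and Trp53 fl/R172H, spelled Tr53 in the labels. In these cells the Villin promoter drives a tamoxifen-inducible Cre in the intestinal epithelium, and alleles that every cancer sample shares cannot be told apart from the cancer state. Pure organoids held a single population, and mixed organoids were started from 2 parts of WT to 1 part of cancer cells. On day 3 after mixing the populations were sorted on their fluorescent labels and their RNA was sequenced in bulk with CEL-Seq, which counts reads at the 3-prime end of transcripts. Pure WT (libraries A01 and A05), mixed WT (A02 and A06), pure cancer (A03 and A07) and mixed cancer cells (A04 and A08) had 2 libraries each. Nothing in the labels says whether the 2 libraries came from separate cultures, so p-values measure only the spread between these libraries, which may be technical.

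After a fatty meal, enterocytes take up fatty acids, monoglycerides and retinol, carry them inside the cell on small binding proteins, and rebuild triglyceride at the endoplasmic reticulum. Microsomal triglyceride transfer protein loads this triglyceride onto apolipoprotein B, and the particle, with other apolipoproteins on its surface, leaves as a chylomicron. These genes are known as markers of the mature enterocyte of the villus and are low in the crypt, and the transcription factor families HNF4, CDX and GATA are known regulators of the enterocyte programme.

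Positions are from RefSeq on GRCm38.p6, the same assembly as mm10, to which the authors aligned the reads. Fabp1 lies at chr6:71199879-71205034, Fabp2 at chr3:122895072-122899506, Rbp2 at chr9:98490537-98509771, Dgat1 at chr15:76502012-76512021, Mttp at chr3:138089855-138143418 and Apob at chr12:7977629-8016839. Apoa1 (chr9:46228630-46230469), Apoc3 (chr9:46233050-46235636) and Apoa4 (chr9:46240844-46243458) sit side by side within 14829 bases, with 2580 bases between Apoa1 and Apoc3 and 5207 bases between Apoc3 and Apoa4. Apoc3 is on the minus strand and its neighbours are on the plus strand. In GENCODE vM21, Fabp2, Apoa4 and Mttp overlap genes on the opposite strand, among them the protein-coding Trmt10a at Mttp, and Rbp2 overlaps Gm37113 on its own strand. The counting is not stated to use strand, so reads of such overlapping genes cannot be told apart. None of the 50-base windows in the last 500 bases of the GENCODE transcripts of the 9 genes was found in a transcript of another gene.

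Promoters of 5 members are shown because HNF4 and CDX genes were measured in the same libraries, and as examples of windows that differ in their matches to these factors' motifs, Fabp1 with CDX letters alone, Fabp2 with both, Apoa4 with HNF4 letters alone, Rbp2 with the most matches and Apoa1 with none. Each is the RefSeq GRCm38.p6 sequence from 250 bases before to 50 bases after the gene start, on the plus strand, at chr6:71199629-71199928 (Fabp1), chr3:122894822-122895121 (Fabp2), chr9:46240594-46240893 (Apoa4), chr9:98490287-98490586 (Rbp2) and chr9:46228380-46228679 (Apoa1). Capitals mark the letters CAAAGT or CAAAGG, the core of HNF4 sites, and TTTATNG or TTTACNG, a CDX motif, on either strand, and in Rbp2 a CAAAGT and a CAAAGG match adjoin in a single run of capitals.
Fabp1: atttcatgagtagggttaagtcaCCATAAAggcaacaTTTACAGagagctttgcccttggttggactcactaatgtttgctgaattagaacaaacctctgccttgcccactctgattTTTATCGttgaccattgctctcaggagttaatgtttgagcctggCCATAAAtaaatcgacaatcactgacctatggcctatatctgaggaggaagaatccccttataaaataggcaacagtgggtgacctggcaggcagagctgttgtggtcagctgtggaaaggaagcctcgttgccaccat
Fabp2: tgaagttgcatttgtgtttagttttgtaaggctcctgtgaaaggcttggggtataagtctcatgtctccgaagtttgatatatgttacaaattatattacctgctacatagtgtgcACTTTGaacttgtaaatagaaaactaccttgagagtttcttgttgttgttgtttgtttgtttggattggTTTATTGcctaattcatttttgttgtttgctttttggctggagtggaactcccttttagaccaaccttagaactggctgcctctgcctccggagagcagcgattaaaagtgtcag
Apoa4: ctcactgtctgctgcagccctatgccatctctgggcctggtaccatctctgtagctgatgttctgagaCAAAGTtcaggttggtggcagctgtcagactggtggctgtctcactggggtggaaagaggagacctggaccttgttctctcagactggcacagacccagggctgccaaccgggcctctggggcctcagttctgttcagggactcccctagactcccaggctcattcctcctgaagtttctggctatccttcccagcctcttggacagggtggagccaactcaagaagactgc
Rbp2: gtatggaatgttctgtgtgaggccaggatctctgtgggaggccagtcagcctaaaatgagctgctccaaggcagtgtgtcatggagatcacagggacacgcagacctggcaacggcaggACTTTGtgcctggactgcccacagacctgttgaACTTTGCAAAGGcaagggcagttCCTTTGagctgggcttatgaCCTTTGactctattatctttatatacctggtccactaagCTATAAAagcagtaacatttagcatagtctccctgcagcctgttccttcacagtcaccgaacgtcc
Apoa1: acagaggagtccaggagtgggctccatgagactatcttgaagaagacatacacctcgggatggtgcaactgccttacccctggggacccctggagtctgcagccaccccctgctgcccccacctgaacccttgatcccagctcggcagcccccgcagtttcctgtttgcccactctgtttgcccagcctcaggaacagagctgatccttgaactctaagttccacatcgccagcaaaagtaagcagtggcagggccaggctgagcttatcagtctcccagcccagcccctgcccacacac

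RefSeq promoters were matched for 7 of the 9 genes, and Apoc3 and Dgat1 were not among them. CAAAGT was present in 3 of the 7, against 14.4% of all 32851 promoters of this length, and CAAAGG in 3 of the 7, against 20.3%. Either of these letters occurred in 5 of the 7, Fabp2, Apoa4, Apob, Mttp and Rbp2, against 31.6% of all promoters. TTTATNG was present in 4 of the 7, Fabp1, Fabp2, Apob and Rbp2, against 10.9%, and TTTACNG in 2 of the 7, against 9.11%. The GATA letters AGATAA occurred in Rbp2 alone among the 7 (11.2% of all promoters) and the TATA box TATAAA in Fabp1, Apob and Rbp2 (13.6%). In Apob and Rbp2 a TATAAA match and a CDX match on the other strand share bases. The Apoa1 window held none of these letters. A match describes the letters of the window and not a bound site.

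The shallowest library, A02 of the mixed WT cells, had 73109 reads, and the deepest, A04 of the mixed cancer cells, had 4733121, a ratio of 64.7. Levels are given as CPM, the usual read count relative to library size, after scaling each total by its TMM factor, with intervals and floors that cover counting error only. A count of 0 allows up to 3 reads, which is 0.587 CPM in A04, 1.69 to 2.75 CPM in the pure WT libraries and 6.80 to 39.3 CPM in the other 5 libraries. Levels are not compared between genes, beyond naming the gene of a list with the most reads. In bulk RNA, fewer cells of a type and less RNA per cell cannot be told apart.

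**Figure D1:**
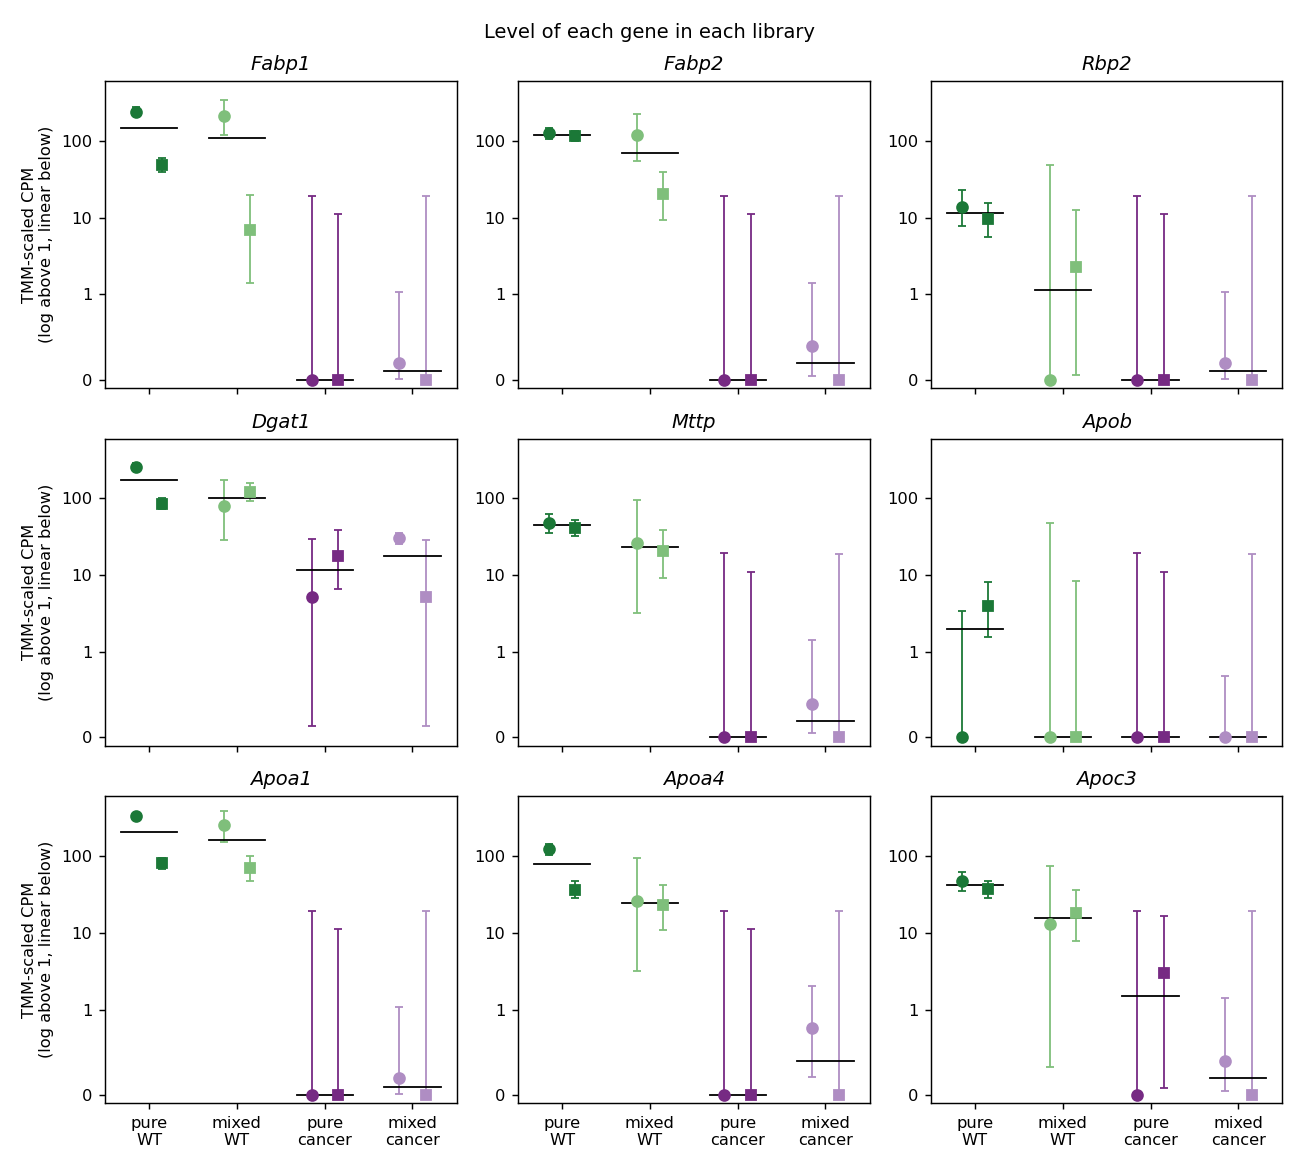
TMM-scaled CPM of each gene (y axis, log above 1 CPM and linear below) in the libraries of the 4 groups (x axis). Points are libraries, circles for A01 to A04 and squares for A05 to A08, bars are 95% counting intervals and black lines are group means. Apart from Dgat1, no gene exceeded 3 CPM in a cancer library.

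The share of all reads on the 9 genes was 0.0799% ± 0.0524 (SD, n = 2) in pure WT cells and 0.0498% ± 0.0360 in mixed WT cells. In pure cancer cells the share was 0.00129% ± 0.00115 and in mixed cancer cells 0.00202% ± 0.00216. The lowest WT library, A06, had 0.0243% (95% exact binomial interval 0.0202 to 0.0289), and the highest cancer library, A04, had 0.00355% (0.00303 to 0.00413). The WT and cancer libraries did not overlap. Of the 168 reads on these genes in A04, 155 were Dgat1.

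Fabp1 encodes the liver-type fatty acid-binding protein, which enterocytes also make. It had 241 CPM in A01 and 48.9 CPM in A05 of the pure WT cells, and 210 CPM (16 reads) in A02 and 6.80 CPM (3 reads) in A06 of the mixed WT cells. Cancer cells had 1 read in A04 and none in the other 3 libraries. The pure cancer group was thus at least 21.3-fold lower than the pure WT group, on CPM of the pooled libraries and against a floor of 3 reads over the group. With a library left out this bound was 8.55-fold (A01), 13.6-fold (A03), 42.1-fold (A05) or 7.74-fold (A07), and its lower 95% counting limit with every library was 17.2-fold. The adjusted p was 0.00415 (edgeR quasi-likelihood test, Benjamini-Hochberg over 5264 genes, as for every adjusted p below).

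Fabp2 encodes the intestinal fatty acid-binding protein. Its level was 125 CPM in A01 and 116 CPM in A05, which differed by less than their counting error. Mixed WT cells had 118 CPM in A02 and 20.4 CPM in A06, from 9 reads each. Cancer cells had 2 reads in A04 and none in the other libraries, which put pure cancer cells at least 20.9-fold below pure WT cells (edgeR, adjusted p = 0.000623). The bound was 13.3-fold without A03 and 7.59-fold without A07.

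Rbp2 encodes the cellular retinol-binding protein of enterocytes, which carries absorbed vitamin A. It had 13.7 CPM (15 reads) in A01 and 9.56 CPM (17 reads) in A05, none in A02, 2.27 CPM (1 read) in A06, and a single read, in A04, over the 4 cancer libraries. The pooled level in pure cancer cells was at least 1.95-fold lower than in pure WT cells (1.24-fold without A03, and no fold can be given without A07). In mixed WT cells it was 5.77-fold lower than in pure WT cells, with a 95% counting interval from 0.964 to 235, and the depth of A02 and A06 does not show a difference.

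Dgat1 encodes diacylglycerol acyltransferase 1, which adds the last fatty acid to make triglyceride and is expressed in many tissues. It was the member with reads in each of the 8 libraries. Its level was 257 CPM in A01 and 85.4 CPM in A05, 78.6 CPM in A02 and 122 CPM in A06, 5.25 CPM (1 read) in A03 and 18.0 CPM (6 reads) in A07, and 30.3 CPM (155 reads) in A04 and 5.19 CPM (1 read) in A08. Every WT library was above every cancer library, although the 95% counting interval of A02 (28.9 to 171 CPM, 6 reads) overlaps that of A04 (25.7 to 35.5 CPM). In pure cancer cells Dgat1 was lower than in pure WT cells by a log2 fold change of -3.73 ± 0.84 (SE; edgeR, adjusted p = 0.00421), and this was -2.79 ± 1.04 without A01 (adjusted p = 0.0974) and -5.10 ± 1.26 without A07 (adjusted p = 0.00256).

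Mttp, the transfer protein that loads lipid onto apolipoprotein B, had 47.6 CPM in A01 and 41.6 CPM in A05, and 26.2 CPM (2 reads) in A02 and 20.4 CPM (9 reads) in A06. Cancer cells had 2 reads in A04 and none in the other libraries. The pure cancer level was at least 7.67-fold lower than the pure WT level (edgeR, adjusted p = 0.00893), or at least 4.89-fold without A03 and 2.79-fold without A07. The call was not kept without A01 (adjusted p = 0.120), A05 (0.132) or A07 (0.0915).

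Apob encodes the structural protein of the chylomicron. Its reads were 7 in A05 (3.93 CPM) and none in the other 7 libraries, A01 included. The pooled pure WT level of 2.44 CPM lies under the 5.72 CPM floor of the pure cancer and the 5.80 CPM floor of the mixed WT group, so no fold is given and a difference was not detectable at this depth.

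Apoa1 encodes the main protein of high-density lipoprotein. It was at 328 CPM in A01, 79.8 CPM in A05, 249 CPM in A02 and 70.2 CPM in A06, with 1 read in A04 and none in the other cancer libraries. Pure cancer cells were at least 30.4-fold lower than pure WT cells (edgeR, adjusted p = 0.000217). With a library left out the bound was 14.0-fold (A01), 19.4-fold (A03), 57.3-fold (A05) or 11.1-fold (A07).

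Apoa4 encodes an apolipoprotein of chylomicrons that is known to be induced by dietary fat. It had 122 CPM in A01 and 36.5 CPM in A05, against 26.2 CPM (2 reads) in A02 and 22.7 CPM (10 reads) in A06. Cancer cells had 4 reads in A04 and none elsewhere. Pure cancer cells were at least 12.1-fold lower than pure WT cells (edgeR, adjusted p = 0.00276), and without A01 the adjusted p was 0.156. The bound was 6.39-fold without A01, 7.68-fold without A03, 21.3-fold without A05 and 4.38-fold without A07.

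Apoc3, an inhibitor of lipoprotein lipase and of the clearance of triglyceride-rich particles, had 46.7 CPM in A01, 37.1 CPM in A05, 13.1 CPM (1 read) in A02 and 18.1 CPM (8 reads) in A06. Cancer cells had 1 read in A07 and 2 reads in A04. The pure cancer level was 21.4-fold lower than the pure WT level, with a 95% counting interval from 3.76 to 851 (edgeR, adjusted p = 0.0311). The ratio was 13.6 without A03, and at least 2.59 without A07, which holds the only read in pure cancer cells. The call was not kept without A01 (adjusted p = 0.384), A03 (0.111), A05 (0.339) or A07 (0.108).

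Thus 7 of the 7 tested members were called lower in pure cancer than in pure WT cells, where 4.84% of the 5264 genes tested were called lower, 5.11% higher and 9.95% in either direction. Fabp1, Fabp2 and Apoa1 were called with any single library left out, and the count of calls fell to 3 without A01. With the DESeq2 tool, Fabp1 had an adjusted p of 0.0595 and Apoc3 of 0.142.

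In mixed organoids, 6 of the 7 tested members were called lower in cancer than in WT cells, where 4.41% of all genes tested were called lower, 2.01% higher and 6.42% in either direction. Apoa1 was 512-fold lower, with a 95% counting interval from 87.8 to 20631 (edgeR, adjusted p = 4.33e-05). Fabp1 was 195-fold lower (30.9 to 8088; edgeR, adjusted p = 0.00247) and Fabp2 was 92.2-fold lower (22.1 to 819; edgeR, adjusted p = 0.000755). The wide intervals reflect the 1 or 2 reads of each gene in A04. Mttp was 56.3-fold lower (12.3 to 523; edgeR, adjusted p = 0.0102), Apoc3 46.1-fold lower (9.54 to 438; edgeR, adjusted p = 0.0186), and Apoa4 lower by a log2 fold change of -4.82 ± 1.24 (edgeR, adjusted p = 0.0167). Dgat1 did not pass the test, with a log2 fold change of -2.20 ± 0.74 (edgeR, adjusted p = 0.0850). Its WT levels were above its cancer levels, but the 95% counting intervals of A02 (28.9 to 171 CPM, 6 reads) and A04 (25.7 to 35.5 CPM) overlap. Single libraries set much of these values. Without A06 the fold was 1112 for Fabp1, 313 for Fabp2 and 1321 for Apoa1, and for Mttp and Apoc3 none can be given. Without A02 it was 54.1 for Fabp2, and Fabp1 had 3 WT reads against 1. Without A04 the folds are bounds, at least 6.21 for Apoa1, 2.36 for Fabp1, 2.23 for Fabp2, 1.49 for Apoa4, 1.37 for Mttp and 1.12 for Apoc3.

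The calls also rested on single libraries. Without A04, which carries the 13 reads of the other members in cancer cells and most of the depth, the count was 1, Apoa1 (for example, adjusted p = 0.129 for Fabp1 and 0.124 for Fabp2 in edgeR). Without A01 or without A06 the count was 3, and without A05 it was 4. Fabp1 also missed the threshold without A02 (edgeR, adjusted p = 0.102). Dgat1 passed it without A02 (adjusted p = 0.0387), A03 (0.0218) or A07 (0.0193), and on barcode counts (0.0289) or transcript counts (0.0287) in place of reads. Apoc3 missed it on barcode counts (edgeR, adjusted p = 0.184).

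**Figure D2:**
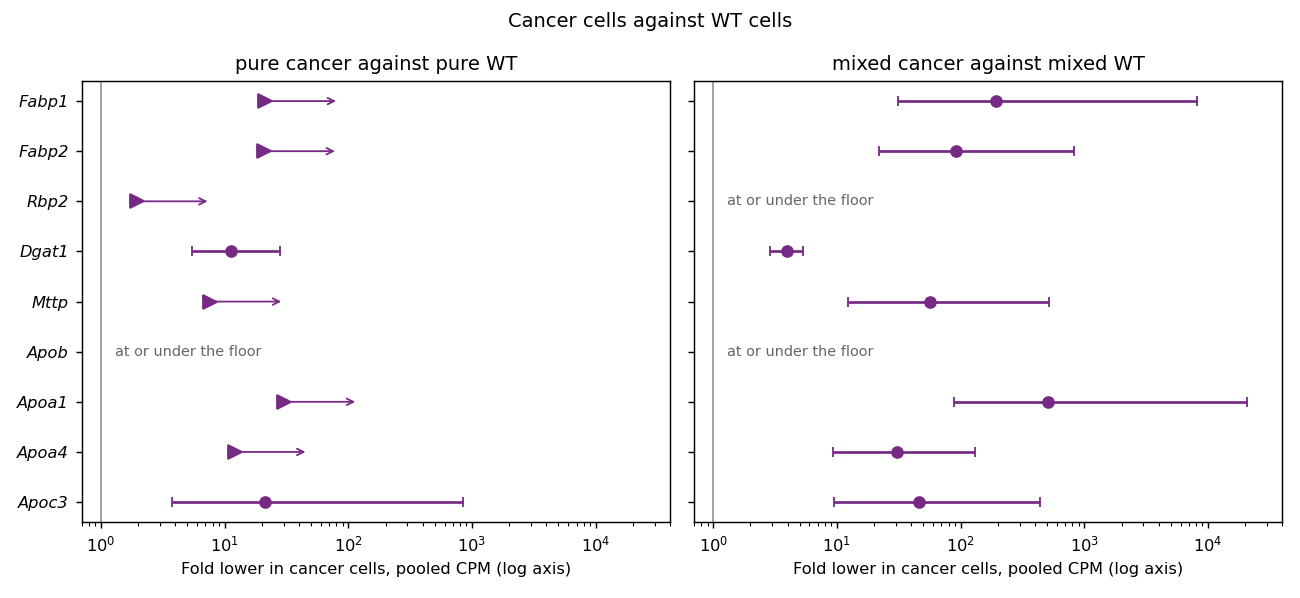
Fold by which each gene was lower in cancer than in WT cells (x axis, log scale, CPM of the pooled libraries), for pure organoids (left) and mixed organoids (right). Circles are ratios with 95% counting intervals, triangles with arrows are lower bounds for genes with 0 cancer reads, and genes without a fold are marked. The bounds reach 30.4-fold for Apoa1 in pure organoids, and the ratio for Apoa1 in mixed organoids is 512-fold.

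The 13 reads on the 8 members other than Dgat1 in mixed cancer cells, which all came from A04, equal 0.421% of their pure WT level (95% counting interval 0.224 to 0.722). For Dgat1 the same measure was 19.5% (16.1 to 23.5). In pure cancer cells, which were not mixed with WT cells, the same 8 members had 1 read, or 0.327% (0.00828 to 1.83). Of the marker classes in mixed cancer cells, the 7 enteroendocrine genes were at 0.280% (0.121 to 0.553), the 14 enterocyte genes at 8.32% (7.68 to 9.01), the 6 goblet genes at 15.6% (14.9 to 16.3) and the 6 Paneth genes at 16.2% (15.5 to 16.9) of the pure WT level. Single genes held most of the reads of 3 of these sums, with Vil1 at 644 of the 705 enterocyte reads, Spink4 at 2446 of the 2482 goblet reads and Mmp7 at 2840 of the 2939 Paneth reads. The source of the members' reads was not tested.

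Next, WT cells from mixed organoids were compared with those from pure organoids. None of the 7 tested members was called, where 0.741% of all genes tested were called in either direction and 0.0950% were called lower (edgeR). The 7 log2 fold changes were below 0, the same 7 with the scaling factors of DESeq2 or upper-quartile factors. Over all genes tested, 54.9% were below 0 and the median was -0.10. Without A01 the members below 0 numbered 4, and without A06 they numbered 5. The 7 passed the filter through their WT reads and share the same libraries, so this count of signs is not evidence about the gene group. None of the 7 had an unadjusted p under 0.05, and DESeq2, which gave 4 of the members an adjusted p, called 0.

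Among the binding proteins the log2 fold change in WT cells on mixing was -0.81 for Fabp1, with a 95% interval from -2.86 to 1.25, and -1.17 for Fabp2 (-2.83 to 0.49). For the lipid-building genes it was -0.69 for Dgat1 (-2.11 to 0.72) and -1.01 for Mttp (-2.91 to 0.88). For the apolipoproteins it was -0.51 for Apoa1 (-1.99 to 0.97), -1.73 for Apoa4 (-3.60 to 0.14) and -1.31 for Apoc3 (-3.27 to 0.65). Each interval holds both a 2-fold fall and no change. Both mixed WT libraries were below both pure WT libraries for Apoa4, Apoc3 and Mttp, from 1 or 2 reads each in A02, whose counting intervals reach into the pure WT values. The groups overlapped for Fabp1, Fabp2, Dgat1 and Apoa1, and A02 is too shallow to place for Rbp2 and Apob. Taken in well order, A02 was below A01 and A06 below A05 for Fabp1, Fabp2 and Apoa1, in part within counting error. Dgat1 was lower in A02 than in A01 and higher in A06 than in A05. The labels do not name such pairs, and they were not tested.

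Without A02, the shallowest library, Fabp1 was called lower in mixed WT cells, with a log2 fold change of -4.43 (edgeR, adjusted p = 0.0280), and the count of calls was 1. Without A01 the sign turned for Fabp1 (0.98), Apoa1 (0.92) and Dgat1 (0.29), and without A06 it turned for Fabp1 (0.45) and Apoa1 (0.21). Fabp2, Apoa4, Apoc3 and Mttp kept a negative log2 fold change with any single library left out.

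**Figure D3:**
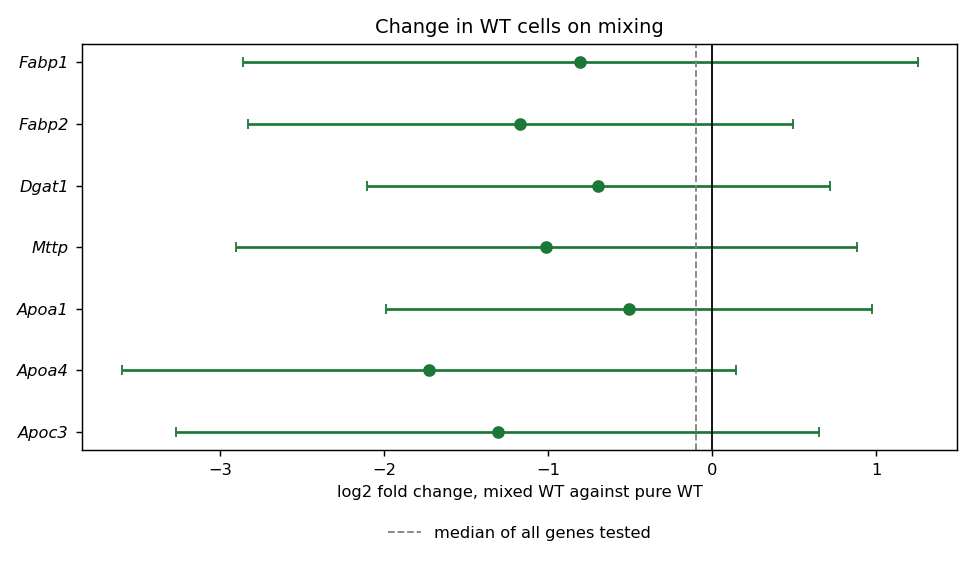
Log2 fold change of the 7 tested genes in mixed against pure WT cells (x axis), with points for the edgeR estimate and bars for its 95% interval. The dashed line is the median of all 5264 genes tested, -0.10. Every interval includes 0.

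The libraries of a WT group differed from each other for some members and not for others. In pure WT cells, A01 was 4.92-fold above A05 for Fabp1 (95% counting interval 3.85 to 6.35), 4.11-fold for Apoa1 (3.37 to 5.02), 3.33-fold for Apoa4 (2.46 to 4.55) and 3.01-fold for Dgat1 (2.46 to 3.69). The ratio was 1.08 for Fabp2 (0.866 to 1.35), 1.14 for Mttp (0.787 to 1.65), 1.26 for Apoc3 (0.856 to 1.84) and 1.44 for Rbp2 (0.668 to 3.06). These 4 intervals include 1. In mixed WT cells, A02 was 30.9-fold above A06 for Fabp1 (8.83 to 165), 5.79-fold for Fabp2 (2.03 to 16.5) and 3.55-fold for Apoa1 (1.89 to 6.48), while the intervals of Dgat1 (0.643, 0.226 to 1.49), Apoa4 (1.16, 0.123 to 5.43), Apoc3 (0.723, 0.0163 to 5.39) and Mttp (1.29, 0.135 to 6.21) included 1. The set of members whose interval left out 1 was thus not the same in both groups, and the difference between the groups was not tested. The mixed WT libraries are shallower, which widens their intervals. For Apoa4, with 2 reads in A02 and 10 in A06, the mixed WT interval holds the pure WT ratio of 3.33. Over the same pure WT libraries the 14 enterocyte markers in the table summed to 1406 CPM in A01 and 1715 CPM in A05, and the Paneth markers to 2157 CPM in A01 and 4195 CPM in A05. Their part in the spread of the members was not tested.

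**Figure D4:**
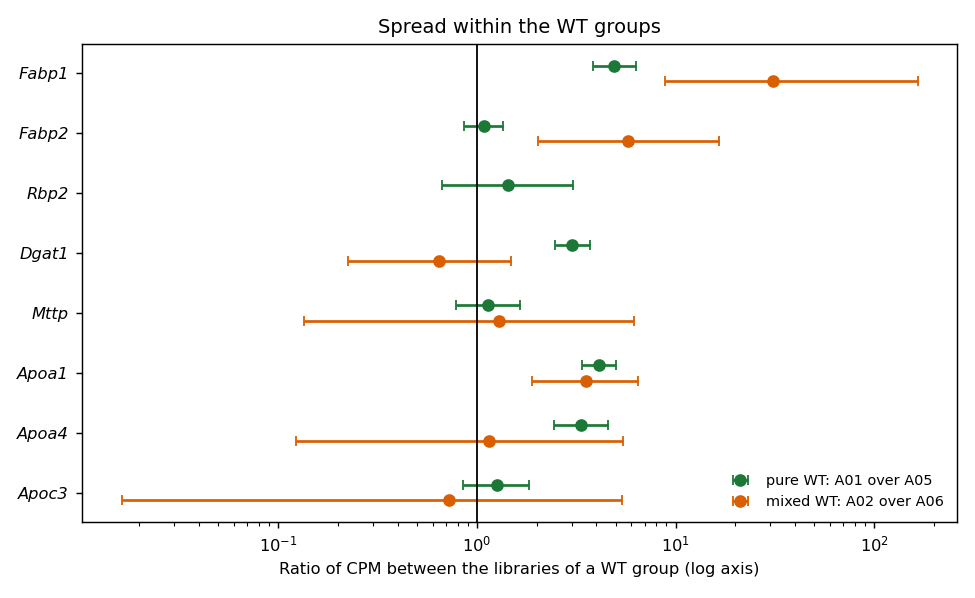
Ratio of the CPM of the libraries within the pure WT (A01 over A05) and mixed WT group (A02 over A06) for each gene (x axis, log scale), with 95% counting intervals. In pure WT cells Fabp1, Apoa1, Apoa4 and Dgat1 lie to the right of 1, and the intervals of Fabp2, Rbp2, Mttp and Apoc3 include 1. Rbp2 has no mixed WT ratio, with 1 read in A06.

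In cancer cells, mixing could be read only for Dgat1, since the other 8 members were at or under the floor of a group. Its level was 11.6 ± 8.99 CPM in pure and 17.8 ± 17.8 CPM in mixed cancer cells (mean ± SD, n = 2), a log2 fold change of 0.83 ± 0.89 (SE; edgeR, adjusted p = 1). Without A04 the log2 fold change was -1.26. No member was called, and 0% of all genes tested were called in either direction, with 69 genes at an unadjusted p under 0.05 (edgeR). The change of Dgat1 on mixing differed between cancer and WT cells by 1.53 ± 1.12 on the log2 scale (edgeR, adjusted p = 0.837), or by -0.56 without A04. None of the 7 members was called for this difference, where 0.0760% of all genes were called.

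Genes of the same pathway were then examined in 9 lists, which leave out the 9 members. In WT cells on mixing, the list medians ran from a log2 fold change of -0.70 for fatty acid uptake and activation (-0.18 with genes at 0 reads left out or set to their bound) to 0.98 for the other apolipoproteins. Of the 5 tested genes of fatty acid uptake and activation, 1 was called lower in pure cancer than in pure WT cells. It was Dbi, the gene of the acyl-CoA-binding protein, with the most reads of the list. Its log2 fold change was -1.56 ± 0.48 (edgeR, adjusted p = 0.0387) in pure and -2.57 ± 0.50 (0.00128) in mixed organoids. The median over the list was 0.50 in pure organoids, against -0.05 over all genes tested.

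In glycerolipid synthesis, 0 of 4 tested genes were called in pure organoids (median -0.60), and Mogat2, the monoacylglycerol acyltransferase of enterocytes, was lower in mixed cancer than in mixed WT cells by -3.15 ± 0.78 (edgeR, adjusted p = 0.0120). Agpat2, which acylates lysophosphatidic acid and had the most reads of the list, was at 165 ± 3.25 CPM in pure WT cells, with a log2 fold change of 0.06 ± 0.47 in pure cancer cells (edgeR, adjusted p = 0.968).

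In chylomicron assembly and export, 2 of 12 tested genes were called lower in pure organoids and 3 in mixed organoids, and the medians were -0.04 and 0.34. The 2 were Tm6sf2, known for its role in lipidating apolipoprotein B particles, and Pla2g12b, known for a role in lipoprotein secretion. Tm6sf2 was at 40.9 ± 2.99 CPM in pure WT cells and had 0 reads in pure cancer cells, at least 7.06-fold lower (edgeR, adjusted p = 0.0200). Pla2g12b was at 40.9 ± 9.41 CPM and was at least 6.88-fold lower (edgeR, adjusted p = 0.0146). The third was Sar1b, the GTPase of the COPII vesicles that carry chylomicrons, lower by -1.64 ± 0.47 in mixed organoids (edgeR, adjusted p = 0.0364). In pure organoids the log2 fold change of Sar1b was -0.18 ± 0.46 (edgeR, adjusted p = 0.894). In WT cells on mixing it was 1.24 ± 0.46 and was not called (edgeR, adjusted p = 0.316). Its part in the mixed comparison was not tested. P4hb, with the most reads of the list, encodes the subunit that the transfer protein shares with protein disulfide isomerase. It was at 454 ± 123 CPM in pure WT and 815 ± 262 CPM in pure cancer cells (edgeR, adjusted p = 0.268).

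Among the other apolipoproteins, 1 of 4 tested genes was called higher in pure cancer cells and 0 lower (median -0.68). It was Clu, also called apolipoprotein J, a secreted chaperone, with a log2 fold change of 3.56 ± 0.77 (edgeR, adjusted p = 0.00316). Apoc2, the activator of lipoprotein lipase, was lower in mixed cancer than in mixed WT cells by -3.32 ± 0.77 (edgeR, adjusted p = 0.00722). Clu was thus higher in the pure comparison in which Apoa1, Apoa4 and Apoc3 were lower. The pure cancer libraries differed, with the list summing to 472 CPM in A03 and 2098 CPM in A07. In mixed organoids 0 genes of the list were called higher in cancer cells. In WT cells on mixing Clu was at a log2 fold change of 1.99 ± 0.74 (edgeR, adjusted p = 0.311).

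Of 7 tested genes of lipid droplets and lipolysis, 3 were called lower and 1 higher in pure cancer cells (median -0.73), and 3 lower in mixed cancer cells (median -0.49). The 3 lower genes were in both cases Ces2a, Ces2e and Aadac, carboxylesterase and deacetylase genes of the endoplasmic reticulum. Ces2e fell from 592 ± 114 CPM in pure WT to 5.25 ± 7.42 CPM in pure cancer cells (edgeR, adjusted p = 3.67e-06). Hilpda, an inhibitor of triglyceride lipase that is induced by hypoxia, was higher by 3.27 ± 0.54 in pure cancer cells (edgeR, adjusted p = 0.000208). Hilpda was also the only gene of the 9 lists called in WT cells on mixing, from 22.8 ± 2.77 to 133 ± 34.3 CPM, a log2 fold change of 2.49 ± 0.55 (edgeR, adjusted p = 0.0294).

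For cholesterol and bile acid handling, 0 of 6 tested genes were called in pure organoids (median -1.48, or -1.24 with genes at 0 reads set to their bound) and 2 were called lower in mixed organoids (median -0.38). These were Abcg5, a sterol exporter, at least 23.9-fold lower (edgeR, adjusted p = 0.0276), and Nr1h4, the bile acid receptor FXR, at least 64.9-fold lower (edgeR, adjusted p = 0.00500). The bounds rest on 7 mixed WT reads for Abcg5 (13.5 CPM) and 19 for Nr1h4 (36.7 CPM). They also rest on the depth of A04, since the mixed cancer floor is 0.566 CPM with it and 15.6 CPM in A08 alone. In A08 alone no fold could be given for Abcg5.

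Retinoid handling genes went both ways, with 2 of 6 tested called higher and 1 lower in pure cancer cells (median 0.88) and the same counts in mixed organoids (median 0.79). Adh1, with the most reads of the list, encodes an alcohol dehydrogenase that oxidises retinol. It fell from 1905 ± 287 CPM in pure WT to 2.99 ± 4.23 CPM in pure cancer cells (edgeR, adjusted p = 3.63e-08). Stra6, a retinol transporter, rose by 6.01 ± 0.72 (edgeR, adjusted p = 3.81e-06), and Rbp4, the plasma retinol carrier, by 3.05 ± 0.74 (edgeR, adjusted p = 0.00817). In WT cells on mixing Adh1 was at a log2 fold change of -1.91 ± 0.46 (edgeR, adjusted p = 0.0524).

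For fatty acid oxidation, 2 of 13 tested genes were called lower in pure cancer cells (median -1.10) and 1 in mixed cancer cells (median -1.15). They were the mitochondrial enzymes Acaa2, lower by -2.44 ± 0.63 (edgeR, adjusted p = 0.0129), and Hadh, lower by -1.76 ± 0.54 (edgeR, adjusted p = 0.0370). Acaa2 was the one called in mixed organoids (edgeR, adjusted p = 0.0352).

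Of 14 tested transcription factors of lipid genes and enterocytes, 3 were called lower in pure cancer cells (median -1.54) and 5 in mixed cancer cells (median -0.78). Hnf4a, whose family binds the CAAAGT and CAAAGG cores shown in the promoters, was at 326 ± 7.34 CPM in pure WT and 41.6 ± 8.00 CPM in pure cancer cells, a log2 fold change of -2.99 ± 0.60 (edgeR, adjusted p = 0.00146). Cdx1 had 272 ± 5.86 CPM in pure WT cells and 0 reads in pure cancer cells, at least 47.4-fold lower (edgeR, adjusted p = 3.79e-05), and Gata4 was lower by -3.19 ± 0.85 (edgeR, adjusted p = 0.0162). In mixed organoids the calls were Hnf4a and Cdx1 again, with Cdx2, Gata6 and Pparg. Elf3, an epithelial ETS factor with the most reads of the list, was at 1214 ± 239 CPM in pure WT and 1731 ± 117 CPM in pure cancer cells (edgeR, adjusted p = 0.510). In WT cells on mixing, Hnf4a was at a log2 fold change of 0.66 ± 0.51 (edgeR, adjusted p = 0.746) and Cdx1 at -1.67 ± 0.65 (0.352).

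**Figure D5:**
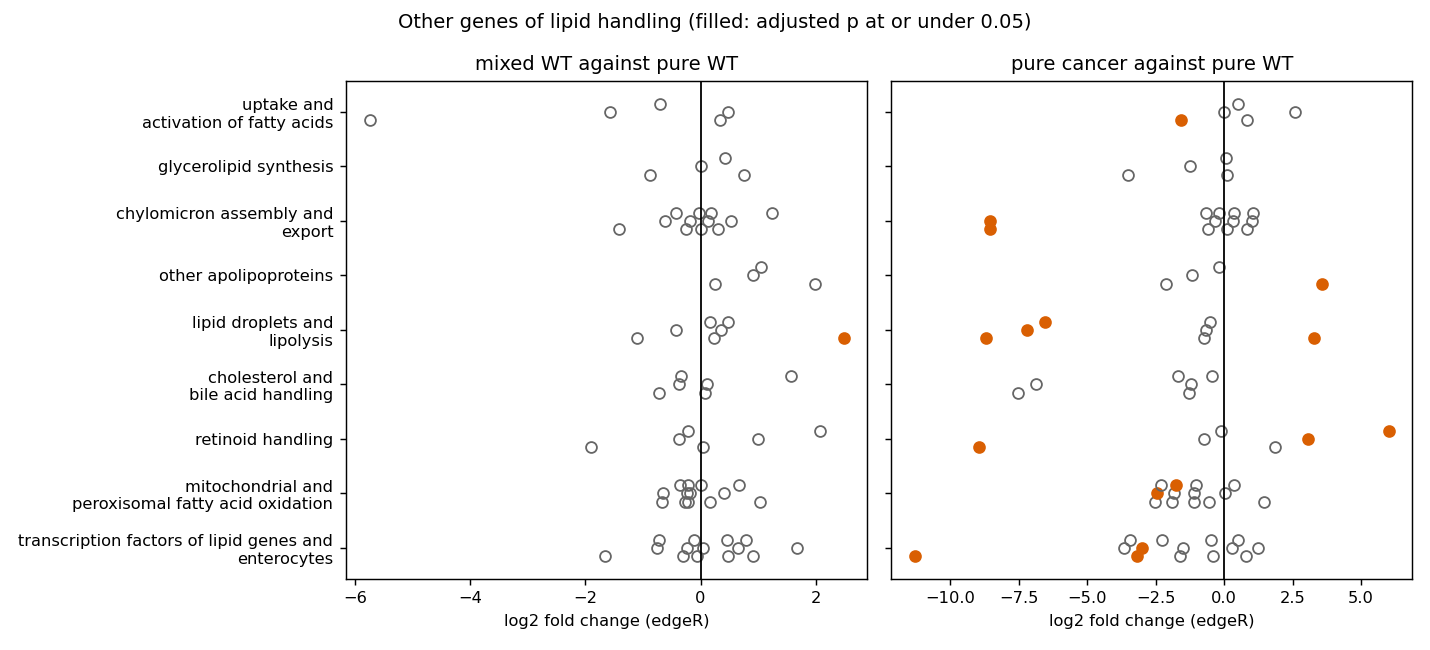
Log2 fold change (x axis, edgeR estimate) of each tested gene of 9 lists of lipid handling and its transcription factors (y axis), in mixed against pure WT cells (left) and in pure cancer against pure WT cells (right). Filled points have an adjusted p at or under 0.05, and estimates for genes with 0 reads in a group depend on the prior count. Hilpda is the filled point on the left, and the lowest filled point on the right is Cdx1.

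The enterocyte label of the gene group was checked against markers that are not members. Of 15 such markers 14 were in the table, and they summed to 1406 to 1715 CPM in pure WT, 1481 to 1797 CPM in mixed WT, 68.8 to 89.2 CPM in pure cancer and 83 to 135 CPM in mixed cancer libraries. In pure cancer cells 9 of the 14 were at 0 reads, among them the sugar transporter Slc5a1 and the disaccharidase Sis. Of 5 tested markers 3 were called lower in pure cancer cells, Alpi and Slc5a1 among them, with Krt20 as well in mixed cancer cells. In WT cells on mixing Krt20 was at a log2 fold change of 2.65 ± 0.92 (edgeR, adjusted p = 0.258). Alpi, the intestinal alkaline phosphatase of the brush border, was at 413 ± 52.5 CPM in pure and 859 ± 83.4 CPM in mixed WT cells (edgeR, adjusted p = 0.419). Enterocyte markers were thus low in cancer cells together with the members, and their part in the members' difference was not tested.

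Other cell types of the epithelium also differed between the groups. Paneth markers summed to 2157 to 4195 CPM in pure WT, 918 to 1507 CPM in mixed WT, 520 to 841 CPM in pure cancer and 542 to 882 CPM in mixed cancer libraries. The gene with the most reads over the 8 libraries was Itln1, but in pure cancer cells 368 of the 380 Paneth reads were Mmp7, which was called higher there (log2 fold change 2.68 ± 0.49; edgeR, adjusted p = 0.000595), while Itln1 had 7 reads. Goblet markers summed to 2959 to 3034 CPM in pure WT, 2910 to 3953 CPM in mixed WT, 814 to 1113 CPM in pure cancer and 456 to 799 CPM in mixed cancer libraries. Tff3 had the most reads over the 8 libraries but 4 in pure cancer cells, where 479 of the 484 goblet reads were Spink4, at 954 ± 210 CPM against 633 ± 17.1 CPM in pure WT cells (edgeR, adjusted p = 0.483). Enteroendocrine markers, led by Cck, summed to 325 to 671 CPM in pure WT and 524 to 544 CPM in mixed WT libraries, and 7 of 7 were at 0 in pure cancer cells. Stem and transit amplifying markers, led by Pcna, summed to 931 to 1149 CPM in pure WT, 362 to 590 CPM in mixed WT, 362 to 814 CPM in pure cancer and 659 to 790 CPM in mixed cancer libraries.

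Cells from outside the epithelium gave little signal. Of 5 fibroblast markers 1 was in the table, Col1a1, with a single read over the 8 libraries, and of 3 endothelial markers none was. Of 5 leukocyte markers 2 were in the table, led by Cd68. They summed to 0.562 to 0.915 CPM in pure WT, 0 to 71.8 CPM in pure cancer and 11.3 to 25.9 CPM in mixed cancer libraries. Cd68 was called higher in pure cancer than in pure WT cells (ratio 62.9, counting interval 15.6 to 551, edgeR, adjusted p = 0.0154). This ratio rests on A07, since the markers had 24 reads in A07 and 0 in A03. Tuft cells, which are epithelial, also gave little signal, with their markers, led by Pou2f3, at 0 to 11.3 CPM. Of 5 hepatocyte markers 2 were in the table and summed to 83.3 to 233 CPM in pure WT libraries, nearly all of it Ttr, which enteroendocrine cells also express, while Alb was not listed.

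The genes whose profile over the 8 libraries was most like that of the members were ranked by Pearson's r with the mean log2 profile of the tested members, over 2743 other genes with a mean of at least 50 reads. The 10 highest were AY761184 (r = 0.99), Cenpv, Ckb, Guca2b, Aldh9a1, Adh1, Smoc2, Gip, Nlrp6 and Aldh1b1 (r = 0.97). Guca2b encodes uroguanylin, a peptide of the villus epithelium, and Gip an incretin hormone of enteroendocrine cells. These 10 genes had 420 to 5609 pooled reads in pure WT cells, of 3008832 on all genes, and 0 to 42 in pure cancer cells, of 543861. Cenpv and Aldh9a1 had 42 and 27 reads in pure cancer cells and 497 and 351 in mixed cancer cells. Both were thus lower but not near 0 in cancer cells, and the others had 0 to 2 reads in pure cancer cells. The r values describe 8 libraries in 4 groups that share depth and scaling, and carry no test. Among the members, r with the mean of the others ran from 0.91 for Dgat1 to 0.99 for Mttp.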

How the data were processed

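Bulk RNA from 8 libraries, 2 in each of 4 groups, was sequenced with CEL-Seq. Per the paper's methods, the cDNA read was mapped with BWA against RefSeq transcripts of mm10, multiply mapping reads were dropped and featureCounts made the gene counts (versions not given in the sources used here). The authors deposited raw read counts, in which amplification copies remain, and barcode counts, the number of different molecule barcodes seen for a gene. Another table holds estimated counts of transcripts, deposited after correction for molecules that share a 4-base barcode. At most 130 barcodes were seen for a member in a library, of 256 possible. The authors' DESeq2 1.22.2 table of mixed against pure WT cells (mean, fold changes and p-values) was not used.

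Read counts were tested with edgeR 4.0.16 (R 4.3.3). After filterByExpr with a minimum count of 10, which kept 5264 genes, and TMM scaling, the 8 libraries entered a single quasi-likelihood fit, and an adjusted p under 0.05 (Benjamini-Hochberg) made a call. Library totals ran from 73109 to 4733121 reads, and 2 entries that are no mouse gene (1 read) were left out. CPM are reads over the library size times the TMM factor. Against a group with 0 reads, the fold is a lower bound set by a floor of 3 pooled reads, and with 1 to 3 reads a ratio with an exact 95% interval. The fit was tested on simulated data.

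Alternatives were barcode counts, transcript counts rounded to whole numbers, other scaling factors, no filter or a filter at 50 counts, fits restricted to the groups compared, DESeq2 1.42.0, and each library left out in turn. The members, the gene lists and the tests were chosen with earlier results of these data known. Genes named are the 9 members, from each pathway list the called genes (at most 6 a comparison) and the gene with the most reads, from each marker list the gene with the most reads, and the 10 genes with the most similar profile. Other marker genes named were chosen after their values were seen. Some genes that this rule names, and 1 allele of the cancer organoids, are not reported here.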

Additional observations from a re-analysis of the deposited data

How the results depend on the processing

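The number of members called in mixed against pure WT cells was 0, and 0 to 1 with a library left out, the 1 being Fabp1 without A02. In pure cancer against pure WT cells it was 7, and 3 to 7 with a library left out (3 without A01), and 3 with a minimum count of 50, which left 3 members to test. In mixed cancer against mixed WT cells it was 6, and 1 to 7 with a library left out, 3 with a minimum count of 50, and 1 in a fit of only the 4 libraries compared, which left 2 members to test. Some log2 fold changes turned sign with a library left out, and the causes were not tested. In WT cells on mixing they were Fabp1 (from -4.43 without A02 to 0.98 without A01, and 0.45 without A06), Apoa1 (from -1.58 without A02 to 0.92 without A01, and 0.21 without A06) and Dgat1 (from -1.27 without A05 to 0.29 without A01). For Dgat1 the change in cancer cells on mixing ran from -1.26 without A04 to 2.22 without A07, and the difference of the changes from -0.56 without A04 to 2.94 without A07. Of the other alternatives for a single gene's log2 fold change, 302 stayed on the same side of the threshold, 26 were no longer past it and 6 passed it newly. On barcode counts the share of the members was larger, at 0.166% for pure WT, 0.0927% for mixed WT, 0.00282% for pure cancer and 0.00679% for mixed cancer cells.

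No paired analysis was run. In well order, A01 to A04 and A05 to A08 each hold 1 library of every group. The labels name each library only by its well, the groups share no replicate number, and nothing says which wells were cultured together. A block by well order was therefore not fitted. With 2 libraries a group, a fit without 1 library assumes that the lone library varies like the others. Depth limits the mixed WT values, since A02 held 1 to 19 reads for the members it detected, and the pure cancer bounds, through a floor of 5.72 CPM over the group.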

Other observations

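The balance between the fatty acid-binding proteins differed between libraries of the same group. Fabp1 made up 65.8% of the reads on Fabp1 and Fabp2 in A01 (exact 95% binomial interval 60.9 to 70.4) and 64.0% in A02 (42.5 to 82.0), against 29.7% in A05 (24.5 to 35.3) and 25% in A06 (5.49 to 57.2). In pure WT cells the intervals of the libraries do not overlap, and in mixed WT cells they do.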
